A study of Mus musculus with 5 samples.

Results

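This account is of Kat6b, Setbp1, Ncoa1 and Hdac4, 4 genes for chromatin coregulators, among the 21951 protein-coding genes of the mouse annotation. A peak was counted for a gene when its summit, the point of highest read pile-up, lay in the gene body or at most 50 kb upstream of the gene start (mm10, GENCODE M21). The study was a ChIP-seq of fibroblast-like synoviocytes (FLS), the fibroblasts of the joint lining, from wildtype C57BL/6 mice. SOX4 or RELA was immunoprecipitated with its chromatin, from FLS left untreated or given TNF at 10 ng/mL for 16 h. DNA from 3 cultures was pooled before each library, so every condition is 1 library without replicates, and a single input library of untreated FLS served as control for all. The 4 peak lists held 192 peaks (SOX4 untreated), 543 peaks (SOX4 TNF), 561 peaks (RELA untreated) and 2502 peaks (RELA TNF). Of these, 3, 3, 3 and 7 peaks were assigned to the genes, and they form 7 sites when summits at most 50 bp apart are counted once. Kat6b, Setbp1 and Ncoa1 had a summit in every list and Hdac4 in none, where a summit was assigned to 0.825% of all protein-coding genes in SOX4 untreated, 2.03% in SOX4 TNF, 1.51% in RELA untreated and 9.25% in RELA TNF. The study had named the genes for such peaks, so nothing is read from 3 of 4.

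SOX4 is a transcription factor of the SoxC family, which binds DNA through an HMG box. RELA is the subunit of NF-κB that carries much of the transcriptional response to TNF. KAT6B is a lysine acetyltransferase of the MYST family that modifies histones. SETBP1 is a nuclear protein with AT-hooks that binds the SET protein, and NCOA1 (also SRC-1) is a coactivator recruited by nuclear receptors. HDAC4 is a class IIa histone deacetylase that moves between cytoplasm and nucleus and represses MEF2 factors.

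The genomic sequence under the Kat6b summit is given first, since this site is unlike the others in repeat content. It is the plus strand of the RefSeq GRCm38.p6 reference at chr14:21613540-21613639, a window of 100 bases around the summit of the SOX4 TNF peak. Capitals mark the words that were found, ACAATG of the SOX core, which was searched for together with ACAAAG, and CACGTG, a palindromic word added after the sequence was seen.
Kat6b, 132.2 kb into the gene: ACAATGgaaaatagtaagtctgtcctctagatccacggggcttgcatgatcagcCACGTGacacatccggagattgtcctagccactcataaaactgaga

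The Kat6b window stands alone in the reference. None of its bases is soft-masked, the mark of repetitive sequence, and no other place in the genome aligned to it with an E-value of at most 1e-05. The same window was set around the sites of Ncoa1, a gene with 1 site of all lists 59.4 kb into the gene and 4 further sites of RELA TNF. The window at 59.4 kb is soft-masked over 59.0% of its bases and aligned to 52360 other places, with an identity of at most 85.6% over 80 or more bases. The 31 bases at its centre nevertheless occur once in the genome. The windows at 51.8 kb and 59.3 kb had 38591 and 618 other alignments, and those at 23.2 kb and 35.3 kb upstream had 99 and 19. The 31 central bases of the window 35.3 kb upstream occur at 2 places and those of the other Ncoa1 windows at 1. Other alignments were not counted for the whole lists. Of the 2502 RELA TNF summits 74.9% lie on a soft-masked base, as do 56.2% of SOX4 TNF summits, 64.5% of RELA untreated summits and 96 of the 192 SOX4 untreated summits. The 31 bases occur once for 79.9% of RELA TNF summits. How reads that fit several places were treated by the authors is not given in the sources used here, and the part of repeats in these peaks was not tested.

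The word ACAATG was found at 2 of the 7 sites, and at the Kat6b site it begins 50 bp before the SOX4 TNF summit, at the edge of the window. That match lies outside all 4 Kat6b peaks, whose outer span begins at 21613560. At the Ncoa1 site at 59.4 kb the word begins 2 bp after the SOX4 TNF summit, on the plus strand. On either strand, ACAATG was present in 9.38% of SOX4 untreated, 8.10% of SOX4 TNF, 9.63% of RELA untreated and 6.95% of RELA TNF windows of this width. CACGTG begins 4 bp after the Kat6b summit. It was in 3.12% of SOX4 untreated, 2.39% of SOX4 TNF, 1.60% of RELA untreated and 0.759% of RELA TNF windows. The related SOX word ACAAAG was found at 0 of the 7 sites. Its share was 8.33% of SOX4 untreated, 10.3% of SOX4 TNF, 10.5% of RELA untreated and 8.59% of RELA TNF windows. GCTGGGA was found at 1 of the 7 sites, the RELA TNF site 35.3 kb upstream of Ncoa1, where it begins 1 bp before the summit. Its share was 8.33% of SOX4 untreated, 6.63% of SOX4 TNF, 5.17% of RELA untreated and 18.4% of RELA TNF windows. The NF-κB consensus was found at 0 of the 7 sites. It was in 0.521% of SOX4 untreated, 0.552% of SOX4 TNF, 0.535% of RELA untreated and 0.440% of RELA TNF windows. These are matches of letters and do not show that a factor binds there.

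**Figure D1:**
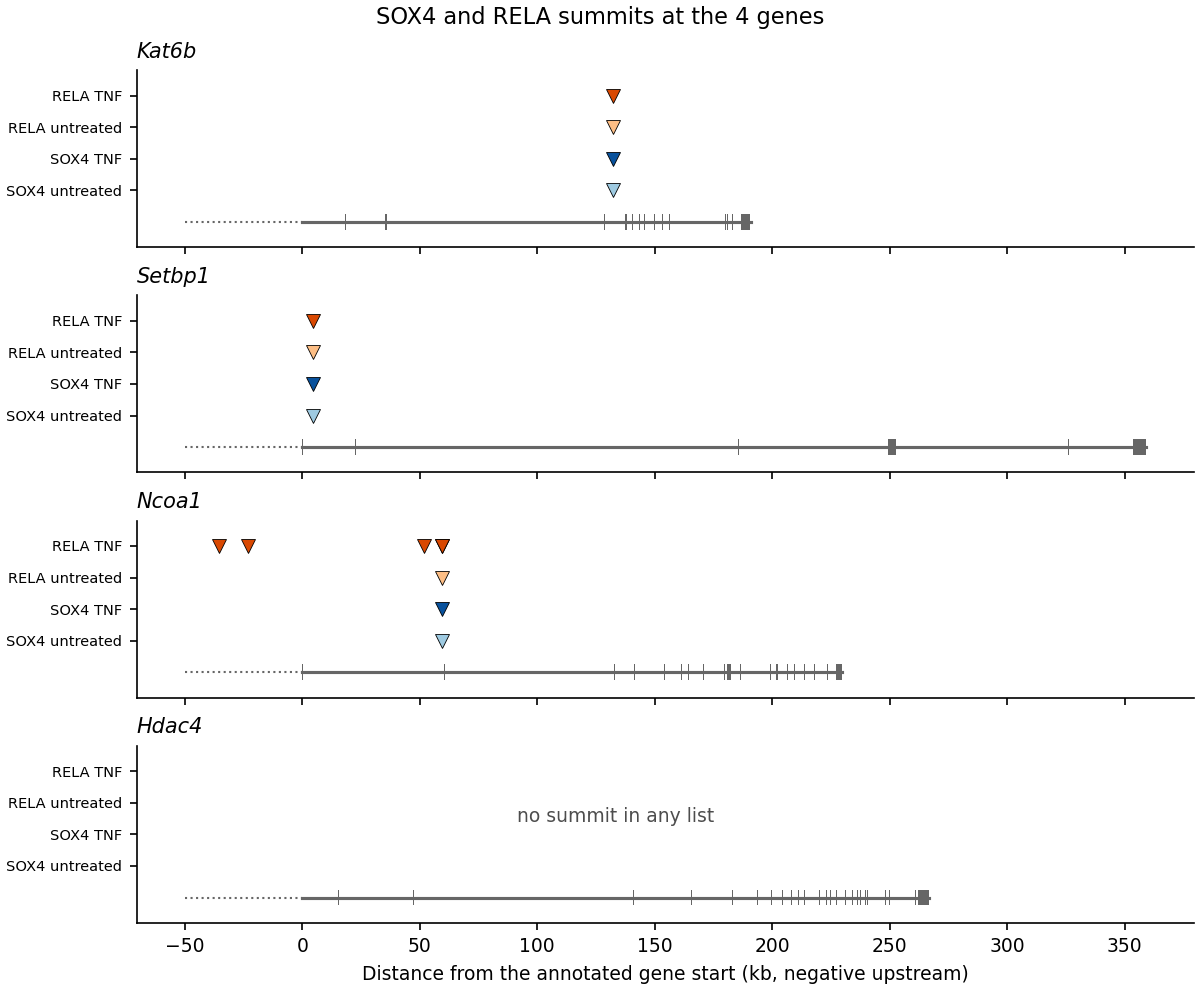
Summits of each list (triangles) along the 4 genes, by distance from the annotated gene start in kb, with the principal transcript below (boxes are exons, the dotted line the 50 kb upstream). Kat6b and Setbp1 had 1 site each, held by all lists, Ncoa1 had 5 RELA TNF summits of which 2 overlap at this scale, and Hdac4 had none.

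Kat6b lies on chromosome 14 from 21481434 to 21672478, on the plus strand, and its site was in intron 3 of the principal transcript, 3728 bp from the exon before it and 5301 bp from the exon after it. The fold enrichment, the authors' ratio of the pile-up to the expected background, was 7.77 in SOX4 untreated, 10.9 in SOX4 TNF, 6.24 in RELA untreated and 8.90 in RELA TNF. Both TNF values were above the untreated value of the same antibody, and both SOX4 values of fold enrichment were above the RELA value of the same treatment. That order of the lists was found at 9 of the 149 sites with a summit in every list (6.04%). By fold enrichment the RELA peaks ranked 489 of 561 without TNF and 1576 of 2502 with TNF, and by −log10 q they ranked 340 and 1150. The SOX4 TNF peak ranked 158 of 543 by fold enrichment.

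The number of fragments over the summit and the local background were solved from the deposited fold enrichment and −log10 p of a peak. Both deposited values follow from the Poisson model of MACS. Where more than 1 solution existed, the larger was taken. Solving them gave a whole number of fragments for 100% of the peaks of each list, within 0.01 of a fragment, after division by a scale of 0.921 in RELA untreated. That scale was itself fitted to bring the values of this list close to whole numbers. With the genome size and fragment length of the list headers, the lowest background in each list implied a number of reads. It was 5560000 for SOX4 untreated, 6880000 for SOX4 TNF, 7830000 for RELA untreated and 6260000 for RELA TNF. These totals are well below the sequencing depth stated by the study. The median peak widths of 56 to 60 bp are also shorter than the header's fragment length of 300. The totals depend on that length, but ratios between libraries do not while it is the same in all lists. At Kat6b the summit was covered by 19 fragments (95% Poisson interval 11.4 to 29.7) in SOX4 untreated, 31 (21.1 to 44.0) in SOX4 TNF, 26 (17.0 to 38.1) in RELA untreated and 24 (15.4 to 35.7) in RELA TNF. The median peak of the RELA lists had 19 fragments without TNF and 20 with TNF, fewer than at Kat6b. Intervals of this kind cover counting error only, since fragments of 1 library are not replicates and copies made by PCR are not told apart. Divided by the reads implied for each library, TNF over untreated was 1.32 for SOX4 (0.722 to 2.47) and 1.15 for RELA (0.634 to 2.09), so neither interval left out 1. The local background at this site was 1.76, 1.76, 2.59 and 1.80 times the lowest of the list, whereas the Setbp1 site and the Ncoa1 site at 59.4 kb were at the lowest in every list. The part of the input signal in the Kat6b values was not tested.

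Setbp1 lies on chromosome 18 from 78750380 to 79109391, on the minus strand. Its site was 4.7 kb into the gene in intron 1, which is 22007 bp long. The fold enrichment was 9.51 in SOX4 untreated, 15.7 in SOX4 TNF, 12.0 in RELA untreated and 31.9 in RELA TNF. RELA TNF stood clear of the other lists, and its peak ranked 40 of 2502. This order of the lists was found at 63 of the 149 sites (42.3%). The summit lay under 17 fragments (9.90 to 27.2) in SOX4 untreated, 32 (21.9 to 45.2) in SOX4 TNF, 27 (17.8 to 39.3) in RELA untreated and 63 (48.4 to 80.6) in RELA TNF. Divided by the reads, RELA TNF was 2.92 times RELA untreated (1.83 to 4.76), and SOX4 TNF was 1.52 times SOX4 untreated (0.820 to 2.92). By counting error alone the interval left out 1 for RELA and not for SOX4, which is no test of TNF with 1 library per condition. Whether both ratios differ was not tested. Around the summit, 56.0% of the 100 bases were soft-masked and 86993 other places aligned, with a median identity of 77.1%, and the central 31 bases occur at 2 places.

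Ncoa1 lies on chromosome 12 from 4247362 to 4477182, on the minus strand, and was the only one of the 4 genes with more than 1 site. The site of all 4 lists was in intron 1, 944 bp before the next exon and 942 bp from the start of a shorter annotated Ncoa1 transcript. Its fold enrichment was 7.93 in SOX4 untreated, 14.7 in SOX4 TNF, 15.4 in RELA untreated and 34.4 in RELA TNF. RELA TNF was the highest, SOX4 TNF and RELA untreated were close, and the RELA TNF peak ranked 26 of 2502. This order of the lists was found at 26 of the 149 sites (17.4%). Fragments over the summit numbered 14 (7.65 to 23.5), 30 (20.2 to 42.8), 35 (24.4 to 48.7) and 68 (52.8 to 86.2) in the same order. Divided by the reads, TNF over untreated was 2.43 for RELA (1.59 to 3.76) and 1.73 for SOX4 (0.891 to 3.54).

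The other 4 Ncoa1 sites were in the RELA TNF list alone. A site at 59.3 kb, with its summit 159 bp from the SOX4 TNF summit at 59.4 kb, had a fold enrichment of 8.19 and 22 fragments (13.8 to 33.3). A site at 51.8 kb, in the same intron, had a fold enrichment of 24.9 and 49 fragments (36.3 to 64.8). Upstream of the gene, the summit at 23.2 kb had a fold enrichment of 19.0 with 37 fragments (26.1 to 51.0), and the summit at 35.3 kb had 8.48 with 16 fragments (9.15 to 26.0). The sites at 51.8 kb and 23.2 kb were thus in the upper part of the list, with ranks 129 and 289 of 2502, and the other pair were under its median of 9.62. The summits at 23.2 kb and 35.3 kb upstream are also within 50 kb upstream of, or inside, the lincRNA genes 2900045O20Rik and Gm31938, and the one at 35.3 kb lies in the body of 2900045O20Rik. Peaks of RELA TNF with neither a RELA untreated nor a SOX4 TNF summit within 50 bp were common, at 1956 of 2502 (78.2%), with a median fold enrichment of 9.48. A site without a listed peak in a library can still hold signal, since the smallest listed peaks had 8 or 9 fragments.

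**Figure D2:**
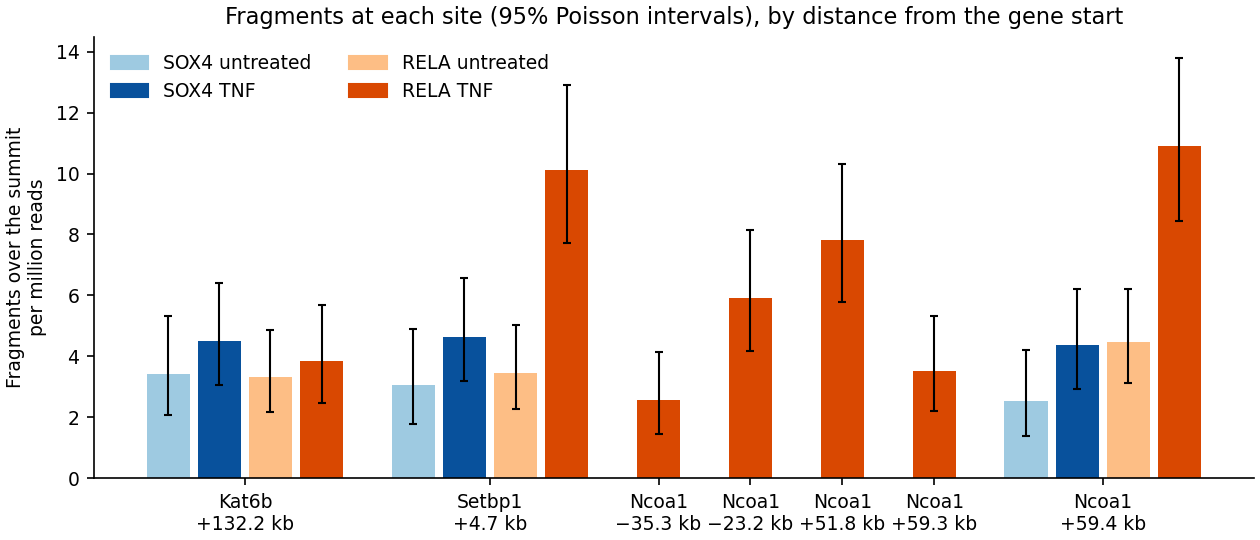
Fragments over the summit per 1000000 implied reads at the 7 sites, by list, with 95% Poisson intervals for counting error. The reads are those implied with the fragment length of the list headers, so the scale of the axis depends on it. RELA TNF reached 10.1 at Setbp1 and 10.9 at the Ncoa1 site at 59.4 kb against 3.83 at Kat6b, and a missing bar means that no peak was listed.

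Only 8 of the 21951 protein-coding genes (0.0364%) had at least as many RELA TNF summits as Ncoa1 with its 5, and 6 of the 8 are on chromosome Y. The other one outside chromosome Y is Gm20388, a locus of 4434882 bp. Among the 1065 protein-coding genes at least as long as Kat6b (191045 bp), 2 had as many (0.188%). Ncoa1 was looked at here because the study named it, and its summits at 59.3 kb and 59.4 kb are close neighbours.

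At the sites of all 4 lists the peaks nearly coincided. Such sites were defined by summits at most 50 bp apart, and the median peak width was 56 to 60 bp in the 4 lists. Closely shared intervals are therefore partly built in. The 4 Kat6b intervals shared 62 bp of an outer span of 65 bp, and their summits lay within 17 bp of each other. At Setbp1 the intervals shared 56 of 74 bp with summits within 7 bp, and at Ncoa1 they shared 55 of 79 bp with summits within 6 bp. SOX4 TNF and RELA TNF summits were 0, 5 and 1 bp apart at Kat6b, Setbp1 and Ncoa1. Among the 543 SOX4 TNF peaks, 149 were at sites of this kind, or 27.4% (Wilson 95% interval 23.9 to 31.3). A limit of 10 bp between summits in place of 50 bp left 98 of them.

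**Figure D3:**
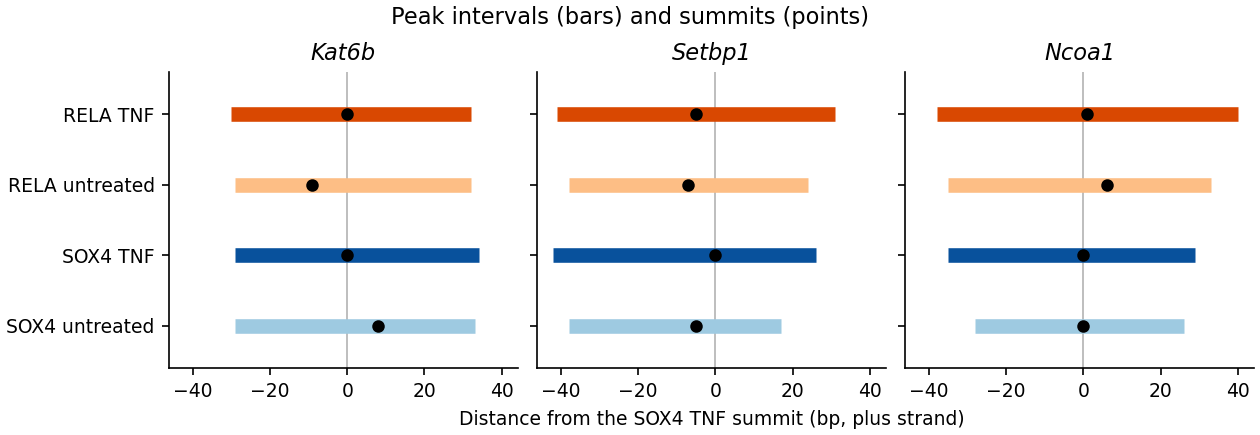
Peak intervals (bars) and summits (points) of the 4 lists at the sites of Kat6b, Setbp1 and Ncoa1 (59.4 kb), by distance in bp from the SOX4 TNF summit. The summits span 17, 7 and 6 bp.

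The difference between TNF and untreated at these sites was set beside all sites that were listed both with and without TNF. The log2 ratio of the SOX4 fold enrichment was 0.48 at Kat6b, 0.72 at Setbp1 and 0.89 at Ncoa1, against a median of 0.46 and quartiles of 0.23 and 0.69 over 161 sites. Kat6b was thus near the middle, and 78.3% and 84.5% of the sites were lower than Setbp1 and Ncoa1. For RELA the log2 ratio was 0.51, 1.41 and 1.16 in the same order, against a median of 0.28 and quartiles of 0.08 and 0.60 over 464 sites. Setbp1 and Ncoa1 were in the upper tail, with 89.4% and 86.0% of the sites below them. In fragments divided by the reads, the ratio was above 2 at 80 of the 464 RELA sites (17.2%), both of these included, and at 3 of the 161 SOX4 sites (1.86%). These ranks describe 1 library against another and carry no test.

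**Figure D4:**
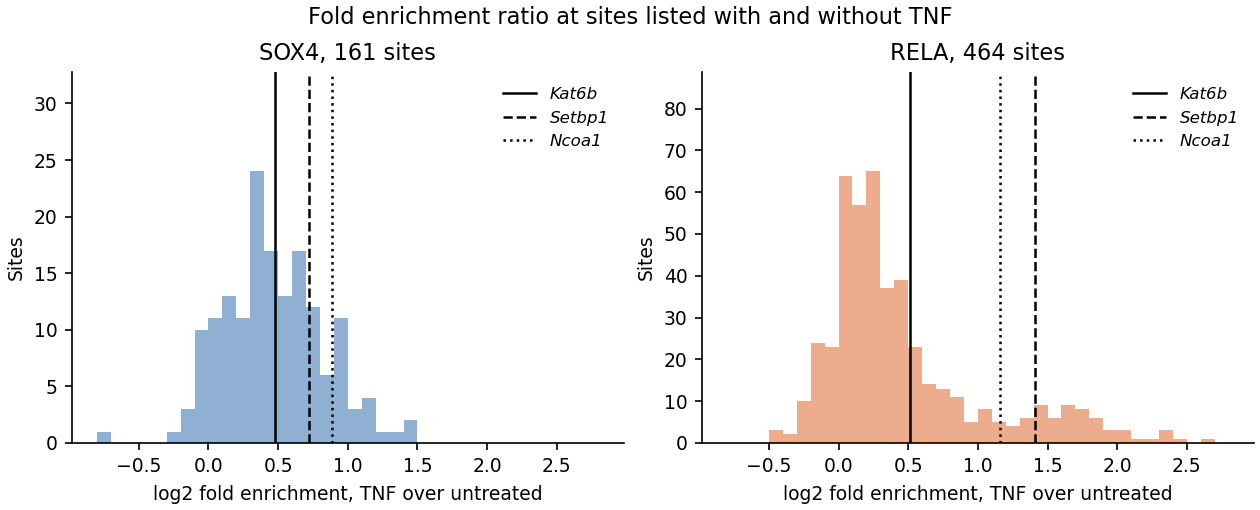
Histograms of the log2 ratio of fold enrichment, TNF over untreated, at sites listed in both conditions (161 for SOX4, 464 for RELA), with lines at the values of Kat6b, Setbp1 and Ncoa1. For RELA the lines of Setbp1 (1.41) and Ncoa1 (1.16) lie right of the main mass and that of Kat6b (0.51) within it.

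RELA and SOX4 values come from different antibodies, so a ratio between them at a site does not compare how much of each factor was bound. With TNF the log2 ratio of RELA to SOX4 fold enrichment was -0.29 at Kat6b, 1.03 at Setbp1 and 1.22 at Ncoa1, where the median of 381 shared sites was 0.15. Only 7.61% of these sites were lower than Kat6b, while 81.6% were lower than Setbp1 and 85.3% lower than Ncoa1. Without TNF the values were -0.32, 0.33 and 0.96, beside a median of 0.28 over 152 sites. In fragments divided by the reads, the RELA to SOX4 ratio at Kat6b was 0.972 without TNF (0.518 to 1.86) and 0.851 with TNF (0.478 to 1.50), intervals that hold 1. With TNF it was 2.49 (1.60 to 3.97) at Ncoa1.

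By the distance of their 4 log2 fold enrichments over the 4 lists, the site most like Kat6b among the 149 was one assigned to Irf2bp2 (distance 0.198), with fold enrichments of 7.77, 10.2, 5.54 and 9.16. A site assigned to Ncoa7 and Hey2 (0.422) and one at Grip1 (0.425) came next. For Setbp1 the nearest were sites at Kcnq1 (0.282), Ccn1 (0.335) and Mtif3 (0.412). For Ncoa1 they were a site with no protein-coding gene assigned on chromosome 14 (0.247), the Mtif3 site (0.456) and the Setbp1 site (0.469). Each list is 1 library, so the likeness rests on 4 values.

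Hdac4 lies on chromosome 1 from 91928779 to 92195699, on the minus strand, and no list had a summit in it or up to 50 kb upstream. The nearest RELA TNF summit was 885964 bp beyond its 5′ end, within Kif1a, with a fold enrichment of 8.72. In the other lists the nearest summits were 1066227 bp (SOX4 untreated), 1066250 bp (SOX4 TNF) and 1066228 bp (RELA untreated) beyond its 3′ end, at 1 place whose nearest gene was Col6a3 (18581 bp away in SOX4 untreated), with fold enrichments of 4.17, 11.2 and 5.32. An upstream limit of 100 kb added no summit. Nothing outside the other 3 genes was near the limit either: the closest summits past their regions were 362611 bp from the body of Ncoa1 (RELA TNF), 714290 bp from that of Kat6b (RELA TNF) and 805187 bp from that of Setbp1 (SOX4 TNF).

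Over the whole annotation, 135 genes (0.615%) had a summit in each list, Kat6b, Setbp1 and Ncoa1 among them. The 4 genes are long, at 191045 bp (Kat6b), 359012 bp (Setbp1), 229821 bp (Ncoa1) and 266921 bp (Hdac4), and a long gene takes up more summits. Among the 1065 protein-coding genes at least as long as Kat6b the shares with a summit were 3.38% without TNF and 8.83% with TNF for SOX4, and 6.67% without TNF and 25.7% with TNF for RELA, and 3.00% had a summit in each list. Hdac4 was not among the 274 genes of this length with a RELA TNF summit.

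A list of 61 other genes for chromatin coregulators and factors tied to them, such as MEF2 factors, was drawn up by family. Not all of the 61 are relatives of the 4 genes, and their median length was 38860 bp. Of them, 0 had a summit in either SOX4 list or in RELA untreated. The shares of all protein-coding genes in those lists were also low, at 0.825% (SOX4 untreated), 2.03% (SOX4 TNF) and 1.51% (RELA untreated). In RELA TNF 10 of the 61 had a summit (16.4%). That share lies between those of all genes and of long genes. Of the 9157 protein-coding genes of 10000 to 50000 bp, the class that holds this median length, 8.59% had a RELA TNF summit. Whether these shares differ was not tested. By family, these were 1 of 10 MYST acetyltransferases and partners, 2 of 7 nuclear receptor coactivators and corepressors, 4 of 17 deacetylases and 3 of 18 genes for SET, SET domain methyltransferases and their Polycomb partners, while 0 of 5 other acetyltransferases and 0 of 4 MEF2 genes had one. Kat6a, the paralog of Kat6b, and Ncoa2, a paralog of Ncoa1, had no summit in any list. Ncoa3, another paralog of Ncoa1, had a RELA TNF summit 27.9 kb upstream with a fold enrichment of 7.48.

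**Figure D5:**
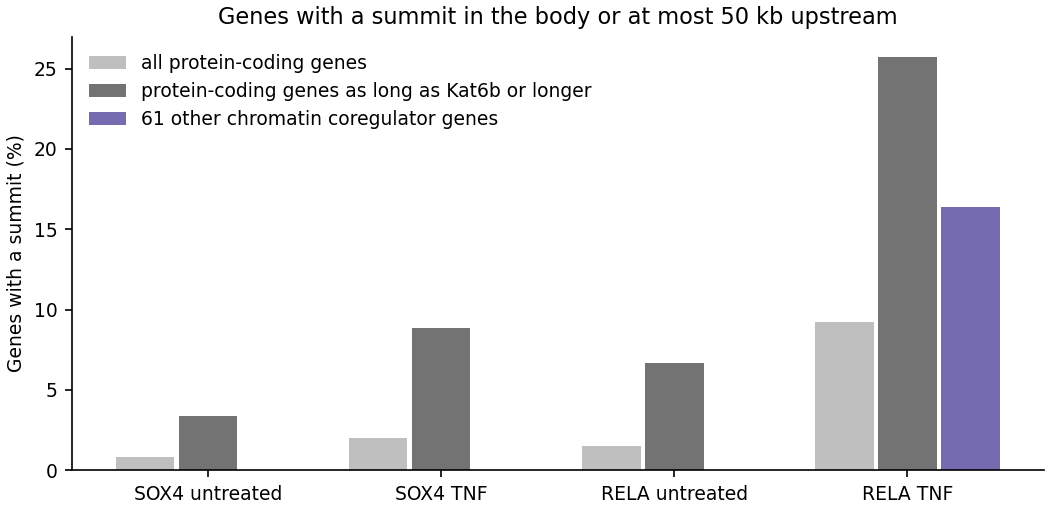
Percentage of genes with a summit in the body or at most 50 kb upstream, by list, for all 21951 protein-coding genes, for the 1065 at least as long as Kat6b and for 61 other chromatin coregulator genes. In RELA TNF the shares were 9.25%, 25.7% and 16.4%. In the other lists the share of the 61 genes was 0, beside 0.825% (SOX4 untreated), 2.03% (SOX4 TNF) and 1.51% (RELA untreated) of all genes.

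Among the class IIa deacetylases related to Hdac4, Hdac5 had a RELA TNF summit 40.4 kb upstream (fold enrichment 7.81) and Hdac9 had one in an intron 649.7 kb into the gene (9.98), whereas Hdac7 had none. Hdac8 had a pair of RELA TNF summits in introns, with fold enrichments of 11.0 and 14.0, and Sirt2, an NAD-dependent deacetylase, had one 4.4 kb upstream (13.5). Suz12, a Polycomb subunit, had the highest value of the 10 genes, 17.5 at 41.1 kb upstream. It was followed by Nsd3, a methyltransferase, with 16.0 at 8.7 kb upstream on an annotated exon. Ing5 and Tbl1x each had a summit of 12.5, at 29.1 kb and 31.8 kb upstream, and Setd1b had one of 8.98 at 26.7 kb upstream. None of these values reached those of RELA TNF at Setbp1 or at the Ncoa1 sites at 59.4 kb, 51.8 kb and 23.2 kb upstream. The RELA TNF value at Kat6b (8.90) was lower than all those of the 10 genes but Hdac5 and Ncoa3. The same held for the Ncoa1 sites at 59.3 kb (8.19) and 35.3 kb upstream (8.48).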

How the data were processed

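The data are the 4 deposited peak lists. Per the labels and the study's methods, single-end reads of 50 bases were mapped to mm10 and peaks were called with MACS2 in Strand NGS 4.0 against 1 input library (p-value cutoff 1e-05, fragment length 300). The deposited P and Q scores are the −log10 of each peak's p and q, and the authors' fold change, a deposited ratio, is the enrichment over background. The authors gave Start, End and Summit as mm10 positions, another kind of deposited value taken here as counted from 1.

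All peaks were used. Fragments over a summit, n, and the local background, λ, were solved from fold = (n + 1)/(λ + 1) and the Poisson probability of more than n fragments. With 1 library per condition no test was run. Alternative distances, gene bodies, measures and a stricter q were tried. Ratios of fragments have exact conditional 95% intervals, and shares have Wilson intervals. The 66 primary sequences of GRCm38.p6 were searched with BLAST 2.17.0 and for words on both strands. Gene assignment, summit matching, the fragment solution and the word search were checked on simulated data. Sequences at the other genes are not reported here.

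The genes and lists were chosen with earlier results of these data known. Named genes are the 4 genes, those of the coregulator list with a summit, genes sharing a summit, the 3 sites most like each site, and the gene nearest to a summit beside a gene without any. Kat6a, Ncoa2, Hdac7 and Gm20388 were named after their values were seen. Intervals were computed with scipy 1.17.1 under Python 3.11.15, and figures drawn with matplotlib 3.10.9.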

Additional observations from a re-analysis of the deposited data

How the results depend on the processing

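No paired analysis was possible because no condition has more than 1 library, and leaving out replicates was not possible either. The RefSeq gene bodies, the fragments divided by the reads and the word CACGTG were chosen after seeing the data. Of 108 alternative values for 33 results, 88 stayed within 1.5 times the reported value, 20 moved and 0 reversed. Only the log2 ratios have a sign that can reverse, since the other results are counts or shares. Among those that stayed, the log2 ratio of RELA to SOX4 at Kat6b without TNF went from -0.32 to -0.01 with −log10 q as the measure. Of the 4 genes, 3 had a summit in each list under every alternative for gene assignment, except that a −log10 q of at least 10 left 2 in SOX4 untreated, without Ncoa1 (8.93). With 5 kb upstream, the protein-coding genes with a summit numbered 95, 232, 180 and 1031 (SOX4 untreated, SOX4 TNF, RELA untreated, RELA TNF), and the other coregulators in RELA TNF 3. With 100 kb upstream they numbered 693 (SOX4 TNF), 508 (RELA untreated) and 3135 (RELA TNF). A −log10 q of at least 10 left 91 genes in SOX4 untreated and 96 sites in every list, and a distance of 10 bp left 98 such sites. Among genes at least as long as Kat6b the shares were 3.38%, 8.83%, 6.67% and 25.7%. With −log10 q as the measure, the log2 ratio of TNF to untreated was 1.08 (Kat6b), 1.32 (Setbp1) and 1.67 (Ncoa1) for SOX4 and 2.02 for RELA at Setbp1, and that of RELA to SOX4 without TNF at Ncoa1 was 1.79, but q depends on depth.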
